A study of Mus musculus with 32 samples.

Results

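The nuclear genes for the subunits of oxidative phosphorylation were followed across mouse leukaemia cells and sorted blood stem cells in which the transcription regulator PRDM16 had been removed, reduced to one isoform or put back. Rows of the count tables were taken by gene symbol: the numbered Nduf genes of the a, b, c, s and v series, Sdha to Sdhd, and all symbols that begin with Uqcr, Cox4 to Cox8 or Atp5. The rule found 84 of the 25268 distinct symbols in the 4 tables. By symbol, 36 belonged to complex I, 4 to complex II, 8 to complex III, 18 to complex IV and 15 to complex V. The other 3 (Atp5s, Atp5sl and Cox4nb) carry the name only and were kept out of the sums by complex. Ndufa4 was left with complex I by its symbol, although its protein is now counted with complex IV.

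Oxidative phosphorylation takes place in the inner mitochondrial membrane. Complex I (NADH dehydrogenase) and complex II (succinate dehydrogenase, also an enzyme of the TCA cycle) pass electrons to ubiquinone, complex III hands them to cytochrome c, and complex IV passes them to oxygen, while complexes I, III and IV pump protons that complex V, the ATP synthase, uses to make ATP. A few subunits are encoded in the mitochondrial genome and the rest, which are the genes described here, in the nucleus. Resting blood stem cells in adult marrow are known for low reliance on respiration, and fetal liver stem cells and leukaemia cells for a higher one.

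The study measured poly(A) RNA in 32 libraries of 10 groups. Leukaemia cells driven by MLL-AF9, sorted directly from moribund mice, formed 4 groups of 3 libraries: Prdm16 wild type with what the labels call EV (WT_EV), Prdm16 knockout with EV (KO_EV, the control for both add-backs), and knockout cells overexpressing the full-length isoform f-PRDM16 (KO_f) or the short isoform s-PRDM16 (KO_s), so that KO_EV, KO_f and KO_s share the knockout and all 4 share MLL-AF9. Haematopoietic stem cells, sorted as Lin- cKit+ Sca1+ CD48-, came from adult bone marrow (BM_WT and BM_KO, 4 libraries each) and from fetal liver with a knockout of all PRDM16 (FL_WT and FL_KO, 3 each) or of f-PRDM16 only, with s-PRDM16 still expressed (FLf_WT and FLf_KO, 3 each). The total-knockout stem cell samples carry the tag VAV and the f-PRDM16 ones the allele name 47bpKO, and the labels explain neither, nor do they give the ages of the mice. The design text calls the replicates independent without saying whether they came from separate mice or leukaemias, so p-values measure the spread between these libraries, which may be technical. Stem cell libraries were amplified with a low-input kit and the leukaemia libraries were not, and each table had its own wild types.

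Library totals ran from 16353584 to 23785307 counts in the leukaemia table, 22490805 to 29343602 in adult marrow, 26715538 to 33246080 in the total-knockout fetal table and 35503288 to 44952448 in the f-PRDM16 fetal table. Prdm16 itself was at 0.733 ± 0.305 counts per 1000000 of the library total (CPM; mean ± SD, n = 3) in WT_EV, 0.0480 ± 0.0476 in KO_EV, 273 ± 53.5 in KO_f and 235 ± 58.0 in KO_s, which is the order of the labels. In adult marrow it was at 30.1 ± 13.5 in BM_KO and 31.0 ± 18.7 in BM_WT (n = 4), so counts over the whole gene did not separate the libraries by their labels there. It was lower in both fetal knockouts, at 19.8 ± 7.78 against 34.5 ± 7.80 CPM with the total knockout and at 7.82 ± 1.81 against 23.0 ± 10.9 with the f-PRDM16 knockout, without passing edgeR's test after adjustment; with the replicate number as a block the total knockout passed (-0.82 ± 0.13, adjusted p = 0.0302) and the f-PRDM16 knockout did not (-1.38 ± 0.19, adjusted p = 0.114). All 12 stem cell markers checked were detected in the stem cell tables, with summed levels of 3182 to 4984 CPM in adult marrow, 1343 to 1933 in the total-knockout fetal table and 1098 to 2801 in the f-PRDM16 fetal table, and all 8 leukaemia markers were detected in the leukaemia table at 1006 to 1913 CPM. The same 8 were also detected in adult marrow, at 848.1 to 1523 CPM, and in the fetal tables, at 488.2 to 969.6 CPM. They thus do not set the leukaemia libraries apart. Granulocyte markers were present everywhere, and 1 leukaemia library stood apart: KO_EV replicate 3 had a summed granulocyte level of 50620 CPM, against 10890 and 10560 in replicates 1 and 2. Counts of members and of list genes that rest on KO_EV are therefore given with and without it.

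The promoters of 4 members are shown first as picked examples of a motif, and counts for all motifs searched are given next. The sequences are the 250 bases before the first listed start of each gene, 5′ to 3′ on the gene's own strand, from RefSeq on GRCm38.p6, with matches to the motif of the respiratory factor NRF1 in capitals; Sdha, Ndufa8 and Cox6a1 fell with s-PRDM16 and hold the letters, and Cox7a2l rose and does not. They lie at chr13:74350241-74350490, chr2:36049339-36049588, chr5:115348959-115349208 and chr17:83514334-83514583, all on the minus strand.
Sdha: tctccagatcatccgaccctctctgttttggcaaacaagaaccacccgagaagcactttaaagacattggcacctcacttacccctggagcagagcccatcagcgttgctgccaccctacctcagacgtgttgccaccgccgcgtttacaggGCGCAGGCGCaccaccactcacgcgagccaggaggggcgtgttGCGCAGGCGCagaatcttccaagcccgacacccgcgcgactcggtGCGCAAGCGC
Ndufa8: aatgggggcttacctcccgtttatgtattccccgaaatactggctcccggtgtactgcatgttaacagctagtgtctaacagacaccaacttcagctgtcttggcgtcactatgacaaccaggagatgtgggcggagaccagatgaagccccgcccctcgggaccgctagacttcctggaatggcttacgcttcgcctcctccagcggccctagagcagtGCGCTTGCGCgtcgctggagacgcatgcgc
Cox6a1: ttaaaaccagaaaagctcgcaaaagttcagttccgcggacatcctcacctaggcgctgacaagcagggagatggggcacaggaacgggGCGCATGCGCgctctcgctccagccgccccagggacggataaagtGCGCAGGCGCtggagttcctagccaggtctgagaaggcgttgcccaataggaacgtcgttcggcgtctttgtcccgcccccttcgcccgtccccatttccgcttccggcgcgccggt
Cox7a2l: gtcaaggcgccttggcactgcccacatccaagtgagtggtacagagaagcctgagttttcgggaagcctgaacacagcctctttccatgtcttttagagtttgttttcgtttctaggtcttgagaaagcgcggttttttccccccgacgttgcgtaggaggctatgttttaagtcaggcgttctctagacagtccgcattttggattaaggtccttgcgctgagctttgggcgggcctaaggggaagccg

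NRF1 (GCGCA and GCGC separated by any 1 base), an ETS motif bound by GABP (CCGGAAGT) and YY1 (AAGATGGCG) were searched on both strands of the window from 250 bases before to 50 bases after each RefSeq start, and 69 of the 84 members had such a window. The NRF1 letters were found for 17 of these 69 members (24.6%), against 5.19% of the 27025 genes with a window. The ETS letters were found for 5 members (7.25%) against 4.31%, and the YY1 letters for 8 members (11.6%) against 1.64%. Median GC content was 57.3% in the members' windows and 52.8% over all genes. Among members tested in the leukaemia table, 11 of the 26 that fell in KO_s against KO_EV held the NRF1 letters (42.3%), as did 5 of the 40 that did not fall (12.5%), with median GC contents of 58.3% and 56.6%. The ETS letters were held by 1 of the 26 (3.85%) and 4 of the 40 (10%). The YY1 letters were held by 4 of the 26 (15.4%) and 4 of the 40 (10%). Atp5b, Atp5g1, Cox5b, Ndufb6 and Ndufb10 fell and held no NRF1 match. Sdha held 3 matches, all before its start, and Uqcrc1, a core subunit of complex III, held 2 matches in its window. These shares describe letters in a window and were not tested.

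Across the 10 groups the members made up about the same mix of complexes, at different total levels (summed CPM by library in the plot of complex sums). The members of complexes I to V summed to 10308, 8561 and 8807 CPM in the WT_EV libraries, 9949, 10548 and 9629 in KO_EV, 7568, 8189 and 9247 in KO_f, and 6278, 6627 and 7506 in KO_s. By library totals, the KO_s libraries were the lowest of the 12 and no KO_s library reached the lowest KO_f one. Every KO_f library lay below every KO_EV one. The factors of TMM, the scaling used in the tests, were 0.95, 0.957 and 0.933 in KO_s and 1.007, 1.042 and 1.026 in KO_f. With the sums divided by them, KO_s replicate 3 no longer lies below every KO_f library. The adult marrow libraries summed to 10544, 16884, 15386 and 19569 CPM in BM_WT and 13534, 15387, 13767 and 13775 in BM_KO, so that BM_KO lay inside the wide range of its wild types. The fetal sums were 10824, 11424 and 12417 CPM in FL_WT against 11350, 12052 and 12812 in FL_KO, and 18087, 17596 and 16984 in FLf_WT against 17976, 18902 and 16306 in FLf_KO. Complex V gave the largest part in every group and complex II, with only 4 genes, the smallest. Levels in different tables come from separate preparations and were not tested against each other.

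**Figure D1:**
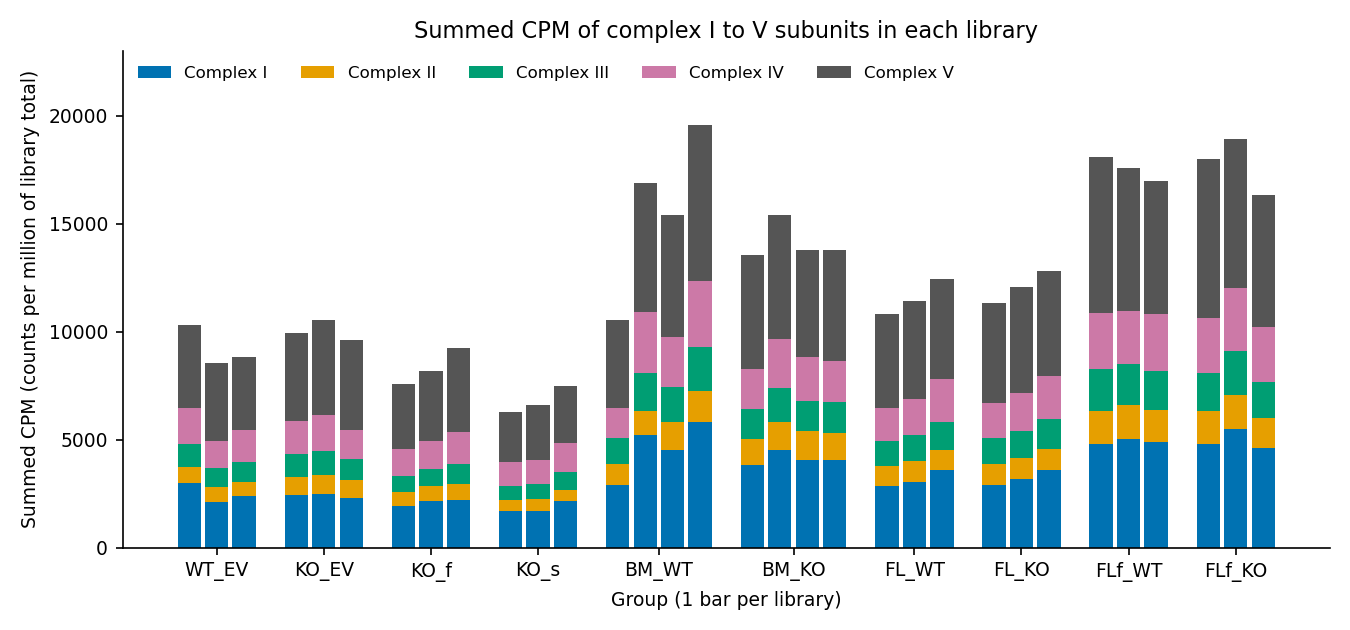
Summed CPM of the members of complexes I to V (vertical axis, counts per 1000000 of the library total), with 1 stacked bar per library, grouped by sample group and coloured by complex. By library totals, without TMM scaling, the 3 KO_s libraries, at 6278 to 7506 CPM, are the lowest leukaemia libraries.

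Per transcript length, the members ranged widely within each complex. By the mean over all 32 libraries, in CPM per 1000 transcript bases, the highest member of each complex was Atp5b, the catalytic beta subunit of the ATP synthase (815), Cox4i1, the ubiquitous subunit 4 of complex IV (488), Ndufa4 (477), Uqcrh, the hinge protein of complex III (317), and Sdhd, a membrane anchor of complex II (216). This order was not the same in each table: in FLf_WT and FLf_KO, Uqcr10 (483 ± 32.2 and 484 ± 62.8) was above Uqcrh (264 ± 17.3 and 275 ± 30.3), and Cox6b1 was above Cox4i1 in FL_WT, FLf_WT and FLf_KO, and Sdha above Sdhd in BM_KO. The 2 largest core subunits of complex V, Atp5b and Atp5a1 (447), were both in the upper part of their complex, whereas Ndufs1, the largest subunit of complex I, was near the bottom of its own (53.9). The lowest rows were the tissue-restricted subunits of complex IV, with Cox8c at 0.0114, Cox8b at 0.0730, Cox6a2 at 0.499, Cox7b2 at 0.864 and Cox7a1 at 2.50.

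With s-PRDM16 put back, subunits of all 5 complexes were lower than in the knockout leukaemia. Of 78 members tested in KO_s against KO_EV, 33 fell and 1 rose at an adjusted p under 0.05 (edgeR's quasi-likelihood test, Benjamini-Hochberg adjustment over 12958 genes), where 16.6% of all genes tested fell and 15.9% rose. The members' median log2 change was -0.41, against -0.01 over all genes, and 64 of the 78 values were negative. Every KO_s library lay below every KO_EV one for 44 of 78 members, where this held for 3914 of 12958 genes. The reverse held for 3 members and 2713 genes. Those that fell were 15 of 35 tested in complex I, 3 of 4 in complex II, 3 of 8 in complex III, 4 of 13 in complex IV and 7 of 15 in complex V, with medians of -0.38, -0.51, -0.34, -0.46 and -0.63; the last was Cox4nb, which has the name only. The 6 members not tested for low counts in this table were Ndufs5 and Cox4i2, Cox6a2, Cox7b2, Cox8b and Cox8c. Without KO_EV replicate 3 the counts were again 33 and 1, and over all ways of leaving out 1 library 22 to 40 fell. Scaling to library totals without TMM gave 37 members that fell and 1 that rose; it moved the median of all genes to -0.10 and the split of all called genes from 2054 higher and 2146 lower to 1694 and 2710. In these bulk samples, fewer cells of a type and less RNA per cell cannot be told apart.

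**Figure D2:**
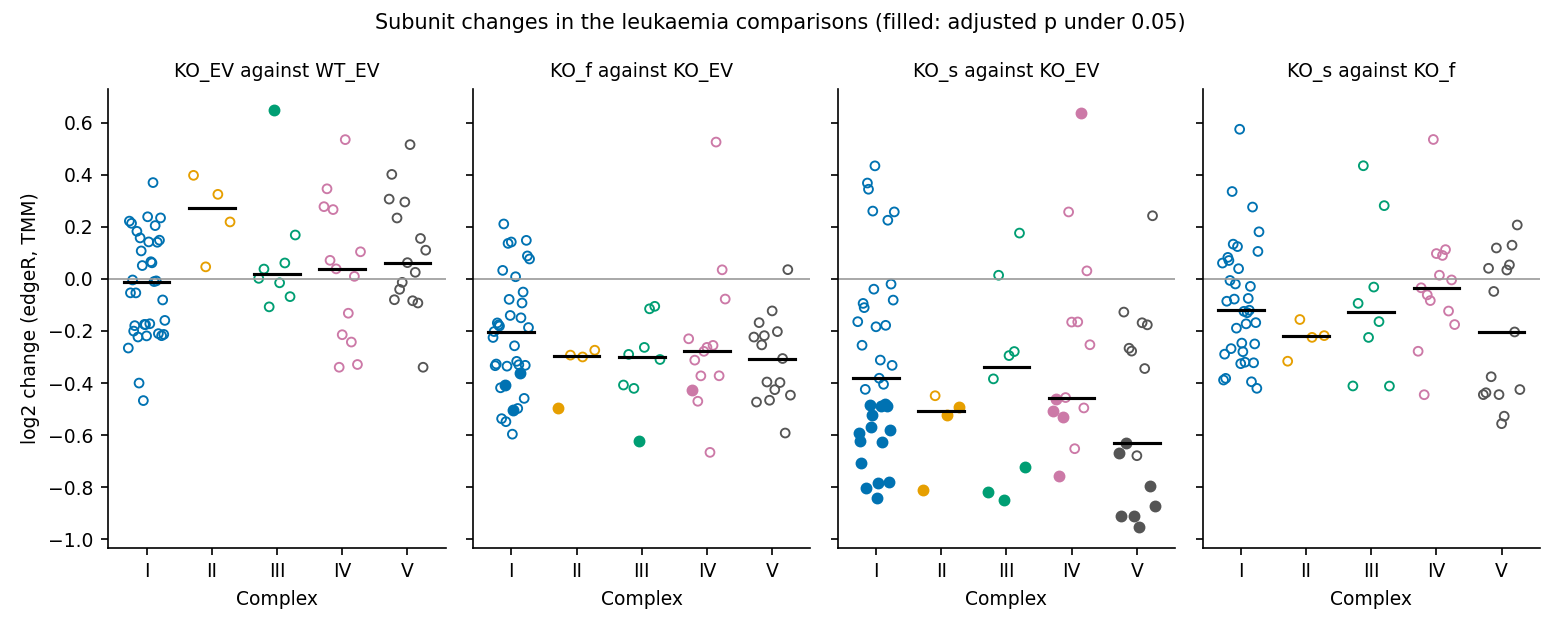
Log2 change of each member tested (edgeR with TMM scaling) by complex in the 4 leukaemia comparisons; filled points passed an adjusted p of 0.05, open points did not, and black lines are medians. In KO_s against KO_EV the medians run from -0.34 in complex III to -0.63 in complex V, and Cox7a2l is the only filled point above 0.

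In complex II, 3 of the 4 subunits fell. Sdha, the flavoprotein that oxidises succinate, was at 431, 445 and 418 CPM in KO_EV and 224, 256 and 215 in KO_s, and its log2 change was -0.81 ± 0.11, adjusted p = 0.000417. No KO_s library came near a KO_EV library, and KO_s was also below the 317, 359.6 and 322 CPM of WT_EV. The membrane anchors Sdhc, at 108, 122 and 115 against 69.4, 85.6 and 71.1 CPM, and Sdhd, at 223, 239 and 191 against 139, 134 and 163, fell by 0.52 and 0.49 on the log2 scale. The iron-sulfur subunit Sdhb had a similar value that did not pass, -0.45 ± 0.16, adjusted p = 0.0553.

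In complex I, the members with the smallest p were accessory subunits of the membrane arm. Ndufb6 was at 42.1, 40.9 and 41.2 CPM in KO_EV and 20.3, 21.2 and 26.4 in KO_s, with a log2 change of -0.78 ± 0.14, adjusted p = 0.00169, and the groups did not overlap. Ndufb10 went from 101, 106 and 113 to 69.1, 71.2 and 69.7 CPM, a change of -0.52 ± 0.11, adjusted p = 0.00392. Of the core subunits named, Ndufs1 fell (-0.48 ± 0.10, adjusted p = 0.00526), from 112, 124 and 101 to 68.1, 78.0 and 80.7 CPM. Ndufv1, which binds NADH, did not pass (-0.33 ± 0.24, adjusted p = 0.320). Ndufv1 was at 108, 104 and 48.1 CPM in KO_EV, and its low value was that of replicate 3, the library with the high granulocyte level; without that library it fell (-0.60 ± 0.18, adjusted p = 0.0253). The highest values in complex I were those of the small subunits Ndufb3 (0.43 ± 0.19) and Ndufa6 (0.37 ± 0.19), neither of which passed (adjusted p = 0.0959 and 0.151).

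In complex III, Uqcrc1, a core protein on the matrix side, was at 324, 348 and 311 CPM in KO_EV and 162, 179 and 173 in KO_s. Its log2 change was -0.85 ± 0.15, adjusted p = 0.00160, and every KO_s library lay below every library of KO_EV and WT_EV (191, 247 and 199.7). The small subunits Uqcrq and Uqcr10 also fell, by 0.72 and 0.82 on the log2 scale. The second core protein Uqcrc2 (-0.29 ± 0.13, adjusted p = 0.0955) and the Rieske iron-sulfur protein Uqcrfs1 (-0.28 ± 0.11, adjusted p = 0.0770) did not pass.

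In complex IV, Cox5b, a nuclear subunit on the matrix side, was at 27.3, 27.6 and 25.6 CPM in KO_EV and 15.3, 14.1 and 15.5 in KO_s, a change of -0.76 ± 0.14, adjusted p = 0.00239. Cox4i1 went from 342, 374 and 289.9 to 214, 227 and 223 CPM (-0.51 ± 0.12, adjusted p = 0.00798), and Cox5a from 149, 162 and 173 to 107, 112 and 113 (-0.46 ± 0.11, adjusted p = 0.00876). In each of these 3 genes the KO_s libraries lay below all KO_EV libraries. Cox7a2l, a relative of Cox7a2 that takes part in joining complexes III and IV into supercomplexes, was the 1 member that rose. It was at 128, 131 and 75.9 CPM in KO_EV and 166, 153 and 166 in KO_s, with a log2 change of 0.64 ± 0.16, adjusted p = 0.0112. The low KO_EV value was again that of replicate 3; without this library the change was 0.45 ± 0.13 and still passed (adjusted p = 0.0214).

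In complex V, 7 of 15 members fell, among them the alpha and beta subunits of the catalytic head; its gamma subunit Atp5c1 overlapped between groups, at 286, 297 and 302 CPM in KO_EV and 224, 243 and 297 in KO_s, and did not pass (-0.13 ± 0.14, adjusted p = 0.531). Atp5b was at 1442, 1563 and 1593 CPM in KO_EV and 695, 857 and 758 in KO_s (-0.91 ± 0.15, adjusted p = 0.00110). Atp5a1, the alpha subunit, was at 1106, 1162 and 1031 and 608, 721 and 625 CPM (-0.67 ± 0.13, adjusted p = 0.00281). For both, the highest KO_s library was below the lowest KO_EV library, and below the lowest WT_EV one (Atp5b 1186, 1272 and 1094; Atp5a1 913, 979.6 and 820.4). Among the genes for the c subunit of the rotor ring, Atp5g3 went from 277, 294 and 234 to 120.5, 140.2 and 129 CPM (-0.95 ± 0.15, adjusted p = 0.00103) and Atp5g1 from 29.2, 30.3 and 29.3 to 13.3, 16.6 and 14.6 (-0.91 ± 0.15, adjusted p = 0.00134). Atp5o, part of the peripheral stalk, fell by 0.87 on the log2 scale, from 149, 166 and 158 to 79.3, 75.1 and 89.3 CPM. The 10 members with the smallest p in this comparison, and Cox7a2l, kept their call in all 12 other fits that were run.

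**Figure D3:**
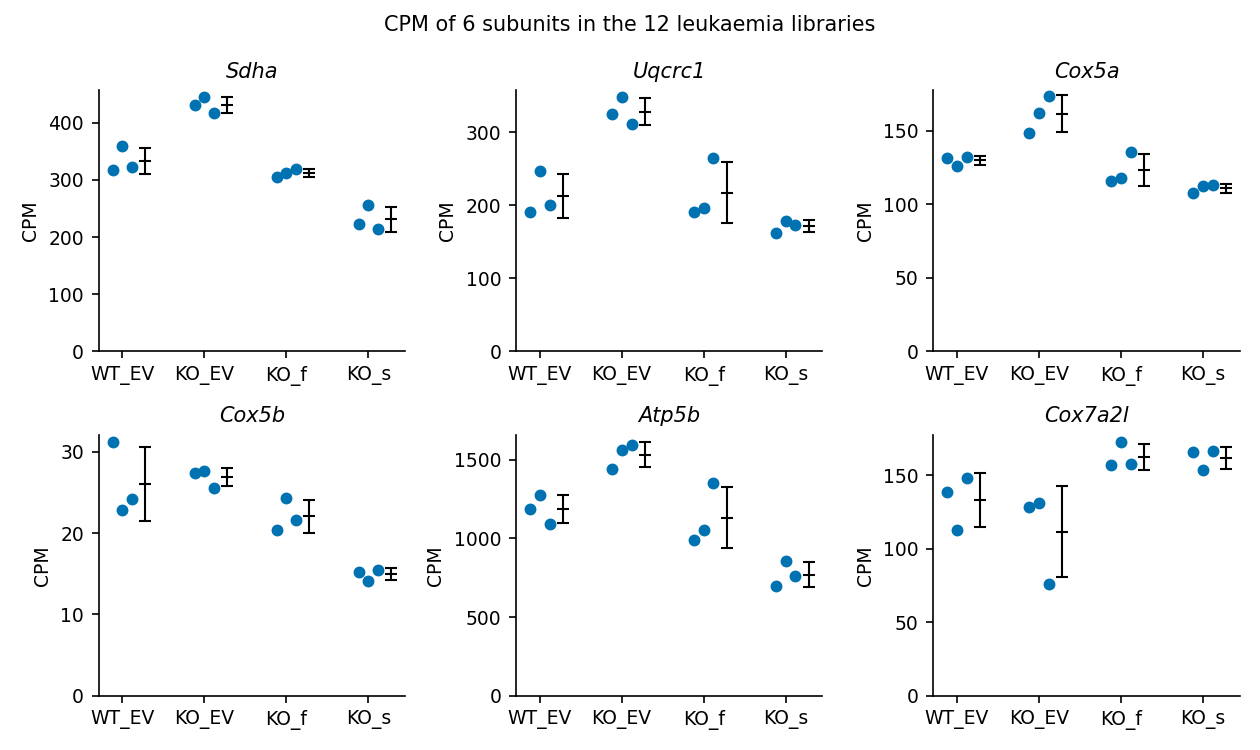
CPM of 6 members in the 12 leukaemia libraries; points are libraries and bars to their right are the mean ± SD of 3. Sdha, Uqcrc1, Cox5a, Cox5b and Atp5b are lowest in KO_s, and Cox7a2l has its lowest library, at 75.9 CPM, in KO_EV.

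Markers of mature myeloid cells and of stem cells moved with this comparison. Of 12 granulocyte markers tested, 8 rose in KO_s against KO_EV and none fell, where 15.9% of all genes rose and 16.6% fell, and their summed level was 22650 to 25400 CPM in KO_s against 10560 to 50620 in KO_EV, with no marker at 0. Of 9 monocyte or macrophage markers tested, 5 rose and 1 fell, with summed levels of 565 to 586 CPM in KO_s and 251 to 331 in KO_EV. All 4 megakaryocyte markers tested rose, from 1.72 to 11.0 CPM in sum in KO_EV to 29.8 to 57.2 in KO_s. Of 7 stem cell markers tested, 3 rose and 1 fell, with summed levels of 425 to 559 CPM in KO_s and 307 to 395 in KO_EV. Without KO_EV replicate 3, 9 granulocyte, 4 monocyte or macrophage, 3 megakaryocyte and 3 stem cell markers rose. Of 8 stem cell markers tested in that fit, 2 fell. Their part in the change of the respiratory subunits was not tested.

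With f-PRDM16 put back, 6 subunits of complexes I to IV were lower than in the same control. In KO_f against KO_EV, 6 of 78 members fell and none rose, where 4.39% of all genes tested fell and 6.88% rose; the median was -0.27 against -0.01 over all genes, and 66 of the 78 values were negative. An unadjusted p under 0.05 was reached by 24 members, against 29.1% of all genes. Every KO_f library lay below every KO_EV one for 35 of 78 members, where this held for 2048 of 12958 genes. The reverse held for 2 members and 2358 genes. The 6 were Sdha, Uqcrc1, Cox5a, Ndufb6, Ndufs1 and Ndufa8, an accessory subunit of complex I, so that 3 belonged to complex I, 1 each to complexes II, III and IV and none to complex V. Sdha was at 305, 312 and 319.9 CPM in KO_f, below all KO_EV libraries, with a log2 change of -0.50 ± 0.10, adjusted p = 0.0144. Uqcrc1 was at 191, 196 and 265 CPM (-0.62 ± 0.15, adjusted p = 0.0208), with replicate 3 the nearest to KO_EV. The changes of Cox5a, Ndufb6, Ndufs1 and Ndufa8 were -0.43, -0.50, -0.36 and -0.41, with adjusted p from 0.0312 to 0.0489. Atp5b, at 989, 1053 and 1350 CPM, missed the threshold (-0.47 ± 0.14, adjusted p = 0.0550), as did Cox7a2l, at 157, 173 and 158 CPM, on the higher side (0.53 ± 0.16, adjusted p = 0.0562); without KO_EV replicate 3 the latter was 0.35 ± 0.13, adjusted p = 0.121.

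These 6 calls depended on single libraries. None passed without KO_EV replicate 2, KO_f replicate 1 or KO_f replicate 2, 2 passed without KO_EV replicate 3 and 11 without KO_f replicate 3. A fit of KO_EV and KO_f alone called none, and DESeq2 called 12 lower and 1 higher. Granulocyte markers summed to 11090 to 15730 CPM in KO_f, with 1 of 12 higher and none lower by the test (0 higher without KO_EV replicate 3), and monocyte or macrophage markers to 323 to 437 CPM, with 2 of 9 higher (1 without it). Where 6.88% of all genes rose and 4.39% fell, 3 of 7 stem cell markers tested rose and none fell. Without KO_EV replicate 3, 2 of 8 rose and 1 fell. Stem cell markers summed to 438 to 689 CPM in KO_f and 307 to 395 in KO_EV. Their part in these values was not tested.

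Set side by side, the values of the 6 genes in KO_s against KO_EV were -0.81 for Sdha, -0.85 for Uqcrc1, -0.46 for Cox5a, -0.78 for Ndufb6, -0.48 for Ndufs1 and -0.48 for Ndufa8; both comparisons use the same 3 control libraries. Compared directly, no member differed between KO_s and KO_f by edgeR's test, where 2.05% of all genes were higher in KO_s and 1.76% lower. An unadjusted p under 0.05 was reached by 15 of 78 members, against 22.5% of all genes. The median was -0.12 against -0.02, and 53 of 78 values were negative. The values nearest to the threshold were lower in KO_s: Atp5g3, at 173, 183 and 254 CPM in KO_f (-0.53 ± 0.15, adjusted p = 0.0668), Atp5a1, at 837, 941 and 1106 CPM (-0.44 ± 0.13, adjusted p = 0.0701), and Cox5b, at 20.3, 24.3 and 21.6 CPM (-0.44 ± 0.14, adjusted p = 0.0900). For Atp5a1 and Cox5b, as for Atp5g3, no KO_s library overlapped with KO_f. In all, 30 of 78 members lay wholly lower in KO_s, where 3112 of 12958 genes did. On the higher side, Ndufb3 had 0.57 ± 0.19, adjusted p = 0.101. DESeq2 called 6 members lower, as did edgeR without TMM scaling; the latter moved the median of all genes to -0.14, the members' median to -0.24 and the split of all called genes from 266 higher and 228 lower to 220 and 510. Of 12 granulocyte markers, 7 were higher in KO_s than in KO_f and none lower, and their part was not tested.

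Between knockout and wild-type leukaemia, Uqcrc1 alone passed the test. In KO_EV against WT_EV, 1 of 78 members rose and none fell, where 0.903% of all genes rose and 1.20% fell; the median was 0.04 against 0.00, and 8 members reached an unadjusted p under 0.05, against 18.1% of all genes. Uqcrc1 was at 191, 247 and 199.7 CPM in WT_EV and 324, 348 and 311 in KO_EV, without overlap, and its change was 0.65 ± 0.15, adjusted p = 0.0460. This call was lost in 9 of 12 other fits, among them those without any 1 KO_EV library, without WT_EV replicate 1 or 3 (0.56 and 0.60), and with the replicate number as a block (0.65), while the direction held in all. Sdha, at 317, 359.6 and 322 against 431, 445 and 418 CPM, also had no overlap but did not pass (0.40 ± 0.10, adjusted p = 0.0737), nor did Atp5g3 (0.52 ± 0.15, adjusted p = 0.0953). In all, 15 of 78 members lay wholly higher in KO_EV, where 1392 of 12958 genes did. The lowest values were those of Ndufb11 (-0.47 ± 0.22), Ndufa7 (-0.40 ± 0.20) and Cox6b2 (-0.34 ± 0.19), none of which passed. The summed level of complex I in WT_EV rested on replicate 1 (3015 CPM, against 2126 and 2378), and KO_EV was at 2320 to 2484. Of 12 granulocyte markers, 5 fell in KO_EV against WT_EV and none rose (2 fell without KO_EV replicate 3). The list was split, with 8 values negative and 4 positive, the highest at 3.455. These markers summed to 8790 to 16610 CPM in WT_EV and 10560 to 50620 in KO_EV, so their total was not lower in KO_EV. Their part was not tested.

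The genes around the respiratory chain were read from lists chosen with earlier results of these data known, and their counts stand beside 16.6% of all genes that fell and 15.9% that rose in KO_s against KO_EV. In that comparison, 13 of 19 genes tested for the TCA cycle and pyruvate dehydrogenase fell and none rose (median -0.50), among them Fh1, which is fumarase (-0.97 ± 0.12), and Idh3a, a subunit of isocitrate dehydrogenase (-0.76 ± 0.14). Among electron carriers and subunits outside the rule, 13 of 19 fell and none rose (median -0.51), with Coq7, an enzyme of ubiquinone synthesis (-1.50 ± 0.24), cytochrome c1 Cyc1 (-0.79 ± 0.13) and Dhodh, which feeds electrons from pyrimidine synthesis (-0.88 ± 0.16). Of 44 assembly factors tested, 7 fell, a share near that of all genes, and 1 rose (median -0.31); those that fell included the complex I assembly factors Ecsit (-0.90 ± 0.13) and Acad9 (-0.69 ± 0.11) and Lrpprc (-0.68 ± 0.14), which stabilises mitochondrial transcripts, and Cox20, a complex IV assembly factor, rose (0.49 ± 0.16). Of 14 carriers and porins, 5 fell and none rose, led by the porin Vdac1 (-0.64 ± 0.12), the citrate carrier Slc25a1 (-0.83 ± 0.16) and the ADP/ATP carrier Slc25a4 (-0.96 ± 0.19). Of 20 regulators of mitochondrial biogenesis, 2 fell, a share below that of all genes, and none rose: the mitochondrial RNA polymerase Polrmt (-0.85 ± 0.16) and the coactivator Ppargc1b (-3.85 ± 0.79), which was at 14.2 ± 2.93 CPM in KO_EV and 0.933 ± 0.838 in KO_s. Without KO_EV replicate 3, 8 of 19 TCA cycle genes, 9 of 19 electron carriers, 6 assembly factors, 5 carriers and porins and 2 regulators fell.

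The same lists in KO_f against KO_EV gave 7 of 19 genes lower for the TCA cycle (median -0.41; Fh1 -0.72 ± 0.12), 6 of 19 for electron carriers (-0.38; Cyc1 -0.58 ± 0.13), 3 of 44 for assembly factors, 3 of 14 for carriers and porins and 1 of 20 for regulators (Polg, the mitochondrial DNA polymerase, -0.67 ± 0.14), with none higher, where 4.39% of all genes fell; the shares of assembly factors and regulators were near it. Without KO_EV replicate 3 these counts were 3, 0, 1, 0 and 1, and the medians of the TCA cycle and electron carrier lists were both -0.31. Between KO_s and KO_f, Polg alone passed among these lists, higher in KO_s (0.59 ± 0.14, adjusted p = 0.0445 by edgeR). This call of Polg was lost with the replicate number as a block. In KO_EV against WT_EV no gene of the lists passed, with or without KO_EV replicate 3; TCA cycle genes had a median of 0.20 (0.13 without KO_EV replicate 3), with 7 of 19 at an unadjusted p under 0.05.

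Where a subunit is encoded by several genes, the shares of the copies were computed per transcript length. Cox7a2l made up 37.2 ± 2.97% of the Cox7a set in WT_EV (mean ± SD, n = 3), 34.8 ± 7.24% in KO_EV, 48.3 ± 2.82% in KO_f and 49.4 ± 6.87% in KO_s, with Cox7a2 making up nearly all of the rest. Every KO_f and KO_s library (41.5 to 53.9%) was above every WT_EV and KO_EV one (26.6 to 40.0%). In the stem cell tables the share of Cox7a2l was lower, from 10.9 to 32.7%. Per length, Atp5g3 made up nearly all of the Atp5g set in the leukaemia groups, with 96.1 ± 0.24% in KO_EV and 95.8 ± 0.25% in KO_s. These shares depend on the lengths used, 2675.5 bases for Atp5g1 and 718.5 for Atp5g3. In counts, KO_EV had 1788 for Atp5g1 and 16180 for Atp5g3. Cox6b2, known from testis, made up 13.4 to 20.7% of the Cox6b pair in the leukaemia groups and 5.56 to 12.9% in the stem cell groups.

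Cox4i2, the second isoform of subunit 4, was high in the fetal liver libraries and low in the other 20. It was at 81.6, 73.2 and 40.2 CPM in FL_WT, 80.2, 66.8 and 36.6 in FL_KO, 36.8, 33.5 and 86.8 in FLf_WT and 38.0, 26.8 and 48.8 in FLf_KO. In adult marrow it ranged from 0.956 to 4.76 CPM and in the leukaemia libraries from 0 to 0.612. Every fetal library was thus above every adult and leukaemia library, while the partner Cox4i1 was present throughout (259, 273 and 334 CPM in FL_WT and 323, 574, 514 and 715 in BM_WT). Per length, Cox4i2 made up 19.1 ± 7.11% of the pair in FL_WT, 17.8 ± 6.89% in FL_KO, 10.2 ± 4.65% in FLf_WT and 7.59 ± 2.21% in FLf_KO, against 0.567% in BM_WT. Neither fetal knockout passed the test, with -0.06 ± 0.35, adjusted p = 1.00 in the total knockout and -0.37 ± 0.42, adjusted p = 0.999 in the f-PRDM16 knockout, where the sign turned without FLf_WT replicate 3 (0.20). Its libraries varied by replicate number: replicate 3 was the lowest in both FL groups and the highest in both FLf groups. Hepatocyte markers summed to 28.3 to 295 CPM in the FL libraries, 49.4 to 76.4 in FLf and 116 to 161 in adult marrow, and their part in this level was not tested.

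**Figure D4:**
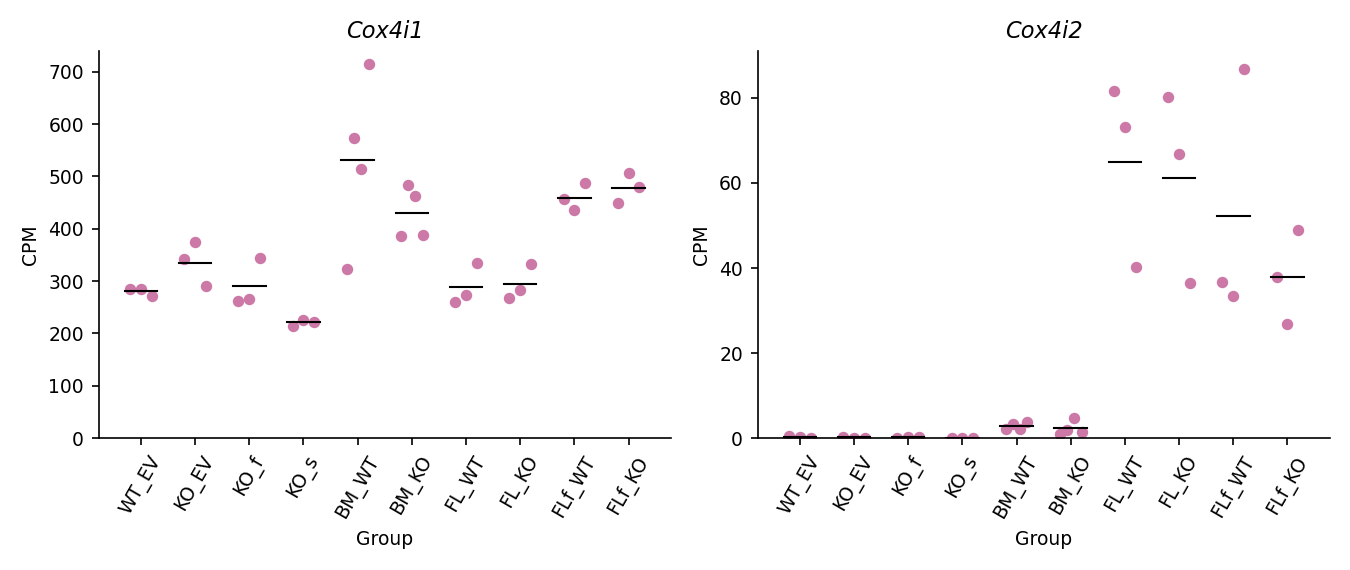
CPM of Cox4i1 (left) and Cox4i2 (right) in the 10 groups; points are libraries and lines are group means. Cox4i1 is present in all groups, whereas Cox4i2 lies between 26.8 and 86.8 CPM in the fetal libraries and at or below 4.76 CPM elsewhere.

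No subunit passed the test in the stem cells, where a 2-fold change could be missed (shares recovered are given with the processing). In adult marrow none of 78 members tested passed in BM_KO against BM_WT by edgeR or DESeq2, none reached an unadjusted p under 0.05, and edgeR called 0% of 13495 genes in either direction, with 8.45% at an unadjusted p under 0.05; DESeq2 called 38 genes higher and 48 lower. The members' median was -0.19 against -0.03 over all genes, with 72 of 78 values negative, and it moved to -0.37 without BM_WT replicate 1 and to -0.05 without BM_WT replicate 4. The members highest and lowest by p were Ndufs1, at 131, 82.0, 142 and 140.2 CPM in BM_WT and 164, 144, 167 and 155 in BM_KO (0.34 ± 0.18, adjusted p = 0.610), and Ndufa7, at 95.4, 179, 141 and 161 against 102, 117, 112 and 102 CPM (-0.42 ± 0.19, adjusted p = 0.591). Ndufs1 was higher in all BM_KO libraries than in any BM_WT one. It was the 1 such member of 78, where 414 of 13495 genes lay wholly higher. Ndufa7 overlapped. Sdha, at 499, 432, 685 and 624 and 623, 641, 695 and 631 CPM, overlapped as well. Shorter transcripts tended to have the lower values: across the 78 members, Spearman's rho of the change against transcript length was 0.51 here, against -0.25 to 0.33 in the other comparisons, a description over genes measured in the same libraries.

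In the fetal tables most members lay slightly above their wild types. With the total knockout, none of 80 members tested passed and none reached an unadjusted p under 0.05, where edgeR called 0% of 15590 genes and 4.74% had an unadjusted p under 0.05; with the replicate number as a block it called 0.526% higher and 0.603% lower, and again no member. DESeq2 called 43 genes higher and 27 lower, and no member. The median was 0.07 against 0.00, with 71 of 80 values positive, and it was -0.06 without FL_KO replicate 3. That library had a summed granulocyte level of 13060 CPM, against 838 and 1545 in FL_KO replicates 1 and 2. The part of this level in the median was not tested. Atp5b, at 1485, 1552 and 1271 CPM in FL_WT and 1678, 1699 and 1522 in FL_KO, was higher in each numbered pair but did not pass (0.22 ± 0.10, adjusted p = 1.00). Uqcrc1, at 348, 353 and 324 and 377, 367 and 396 CPM, did not overlap and did not pass either (0.19 ± 0.09, adjusted p = 1.00). It was the 1 member of 80 that lay wholly higher in FL_KO, where 572 of 15590 genes did.

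With the f-PRDM16 knockout, none of 79 members tested passed or reached an unadjusted p under 0.05, where edgeR called 0% of 13631 genes, DESeq2 4, all lower, and 2.62% of genes had an unadjusted p under 0.05 by edgeR. The median was 0.10 against -0.01, with 68 of 79 values positive, and all 35 complex I members tested were positive, between 0.01 and 0.32. Without TMM scaling the members' median was 0.02 and that of all genes -0.10. Ndufb3 was at 68.0, 71.7 and 81.9 CPM in FLf_WT and 66.7, 100.2 and 92.8 in FLf_KO (0.32 ± 0.17, adjusted p = 0.999), with overlapping groups. Granulocyte markers summed to 7669 to 46250 CPM in FLf_KO against 3498 to 20930 in FLf_WT and to 838 to 13060 in FL_KO against 253 to 1798 in FL_WT, with none called by edgeR without the block; with the replicate number as a block, 6 of 12 granulocyte markers rose in FL_KO and 0 in FLf_KO. Stem cell markers summed to 1343 to 1529 CPM in FL_KO against 1559 to 1933 in FL_WT, without overlap, and to 1098 to 1573 in FLf_KO against 1423 to 2801 in FLf_WT. None of the 12 was called without the block, and with it 3 fell in FL_KO and 0 in FLf_KO. Their part in these values was not tested.

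**Figure D5:**
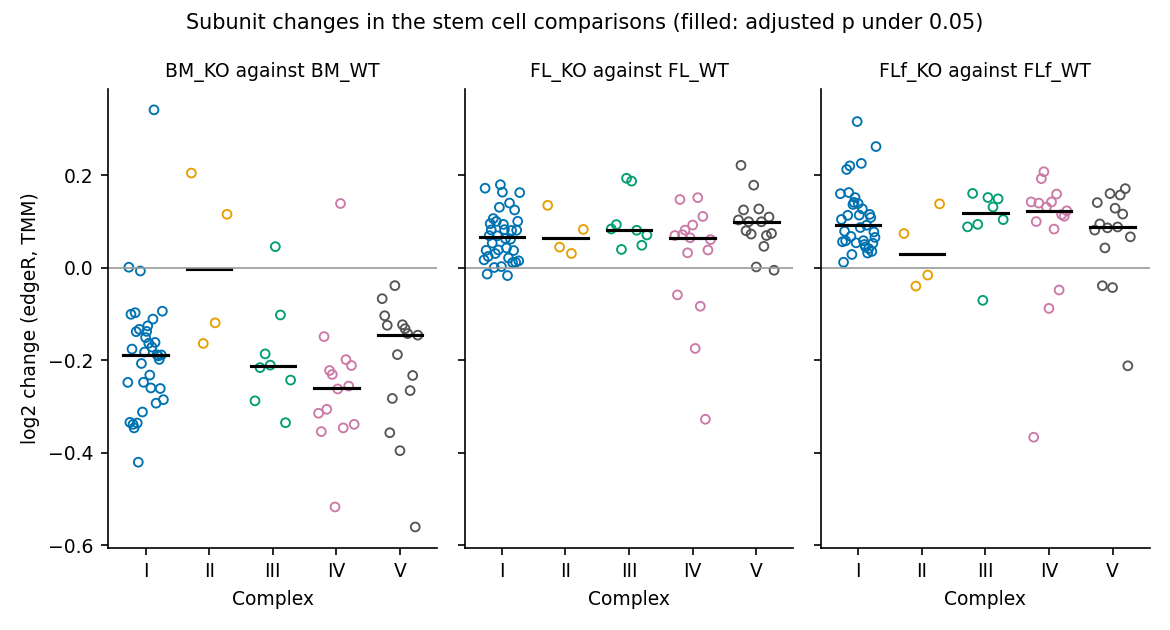
Log2 change of each member tested (edgeR with TMM scaling) by complex in the 3 stem cell comparisons; filled points would mark an adjusted p under 0.05 and there are none. Black lines are medians, below 0 in adult marrow and above 0 in both fetal tables.

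A few members had levels that belonged to a table rather than to a group. Ndufs5, a complex I subunit, had 0 counts in all 26 libraries of 3 tables and 30.7 to 43.9 CPM in the total-knockout fetal table. In that table Atp5l, a subunit of the membrane part of complex V, was at 103 to 145 CPM, against 1.24 to 5.38 in all other libraries, Atp5g2 was at 74.5 to 112 CPM against 1.22 to 32.7, and Ndufb4 was at 29.9 to 41.1 CPM against 0.610 to 17.9. Cox7c, a complex IV subunit, was at 5.80 to 10.01 CPM in the leukaemia table and 65.3 to 149 CPM in the 3 stem cell tables. In the total-knockout fetal table, rows with predicted-gene names beginning with Gm took 9.25 to 10.3% of counts, against at most 0.378% elsewhere, and the part of counting or annotation in these levels was not tested. Both groups of each comparison share a table.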

How the data were processed

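Poly(A) RNA was sequenced in 32 libraries. The 4 deposited tables hold counts of reads per gene for each library, whole numbers that the authors did not normalize, with all columns matched to samples per the labels (0 columns unused). The submitters' processing notes name bcl2fastq 2.17, TopHat, DESeq and the build mm9; their roles, the annotation and the strand setting are not given in the sources used here. Per the labels' protocols, stem cell RNA went through a SMARTer low-input amplification and leukaemia RNA did not. Spike-in rows (92 in 2 of the tables) were left out.

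Counts were tested as deposited in edgeR (version 4.0.16, under R version 4.3.3): genes of low count were dropped with filterByExpr, libraries were scaled by TMM, and a two-sided quasi-likelihood test from a robust fit was adjusted by Benjamini-Hochberg over all genes tested, with a threshold of 0.05. The 12 leukaemia libraries were fitted together and each stem cell table alone. Log2 changes carry their standard error. CPM is per 1000000 counts of the library total, with no test; lengths are the median of GENCODE vM21 protein-coding transcripts, and promoters are RefSeq's on GRCm38.p6. The scripts were tested on simulated data. Of 2-fold changes put in, 47% were recovered in the adult marrow comparison. The share was 36% with the total fetal knockout and 9% with the f-PRDM16 knockout. In the leukaemia comparisons it was 36 to 55%. Of 4-fold changes, 67 to 77% were recovered in the stem cell comparisons and 74 to 83% in the leukaemia ones. No 2 libraries of a table were duplicates (124 pairs).

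The members, gene lists and markers were chosen with earlier results of these data known. Named were, per comparison, up to 10 members passing in each direction by p (or the 3 nearest), fixed core and paralogous subunits, the highest and lowest of each complex, and up to 3 genes per direction of each other list. Same-numbered fetal libraries deviated together (correlations of 0.309 to 0.713), although FL_KO replicate 2 matched FL_WT replicate 1 best. The fetal numbers were taken as pairs only in the fits with a replicate block. The main fetal values come from fits without it and leave the pairing out. Leukaemia and marrow numbers (lowest -0.198) were not taken as pairs. Alternatives were DESeq2 1.42.0, RLE or no scaling, no filter, a replicate block, the 2 groups only, other CPM totals and each library left out. The gene lists without KO_EV replicate 3 were an alternative chosen after seeing the data. Some genes that the naming rule picks are not reported here.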

Additional observations from a re-analysis of the deposited data

Results flagged for a closer look

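In the groups of 4 libraries, 50 sets of values were screened for 1 library far from the other 3 (a gap to its neighbour, as a share of the whole range, above Dixon's critical value), and chance marks about 1 set in 20. The summed CPM of complexes I to V in BM_KO was marked (0.870), since replicate 2 stood at 15387 CPM and the others between 13534 and 13775. Cox5b in BM_KO was marked (0.904), again for replicate 2, at 121 CPM against 104 to 105. Uqcrc2 in BM_WT was marked (0.847), for replicate 4, at 222 CPM against 175 to 182. In the adult marrow comparison no member passed the test with these libraries, without BM_KO replicate 2 or without BM_WT replicate 4, and 3 other genes fell without the last.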

How the results depend on the processing

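Counts of members that passed were the values most open to the settings. In KO_EV against WT_EV the 1 member that rose became 0 without TMM, without the filter on low counts, with the replicate block and with the 2 groups only, 3 (and 1 that fell) by DESeq2, and 0 to 1 with 1 library left out. In KO_f against KO_EV the 6 that fell became 2 without the filter, 0 with the 2 groups only, 12 (and 1 that rose) by DESeq2, and 0 to 11 with 1 library left out. In KO_s against KO_f the 0 that fell became 6 without TMM and 6 by DESeq2; the members' median of -0.12 became -0.24 without TMM and ran from -0.25 to -0.023 with 1 library left out, the former without KO_s replicate 3. In KO_s against KO_EV no setting moved the 33 by more than 1.5 times (22 to 40 with 1 library left out). The log2 change of Cox4i2 in the f-PRDM16 knockout turned to 0.20 without FLf_WT replicate 3, and with 1 library left out ran from -0.63 to 0.20.

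With TMM scaling of CPM, log2 ratios of summed CPM moved beyond the spread to -0.64 for complex II and -0.66 for complex V in KO_s against KO_EV, -0.26 for complex II in KO_s against KO_f, 0.091 for complex II and 0.14 for complex V in the total fetal knockout, and 0.11 for complexes I to V, 0.071 for complex II and 0.13 for complex IV in the f-PRDM16 knockout. The same sums were only divided by the TMM factors here, and why the factors differ between groups was not tested.

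Over all genes, the 117 higher and 155 lower in KO_EV against WT_EV became 439 and 475 by DESeq2, 0 and 1 with the 2 groups only and 70 and 125 with the replicate block. The 892 and 569 in KO_f against KO_EV became 1303 and 922 by DESeq2 and 287 and 105 with the 2 groups only, and the 266 and 228 in KO_s against KO_f became 674 and 703 by DESeq2. The stem cell tables, with 0 by edgeR, gave 38 and 48 in adult marrow, 43 and 27 in the total fetal knockout and 0 and 4 in the f-PRDM16 knockout by DESeq2, and 82 and 94 in the total fetal knockout with the replicate block.

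With the replicate number as a block, 0 members rose in KO_EV against WT_EV, 5 fell in KO_f against KO_EV and 34 fell in KO_s against KO_EV; numbers do not pair these libraries. In the paired fetal tables the replicate block changed no member's call; in the total knockout it added calls, among others, for Prdm16 (-0.82), 6 granulocyte and 3 stem cell markers.

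Limits: changes are relative to each library's total, reads shared by gene copies could not be resolved from counts, and 3 or 4 libraries a group limit what can be called.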
